A study of Mus musculus with 4 samples.

Results

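Interferon response genes and the sensors of foreign or misplaced nucleic acid were examined in spermatocyte preparations of Np95 knockout mice and controls. The members are 39 genes named by symbol, all 39 of which have a row among the 24388 gene symbols of the deposited table. They comprise 7 sensors of nucleic acid, 8 signalling factors and 24 induced genes. RNA sequencing was done on 2 libraries labelled control and 2 libraries labelled Np95 knock out, all of strain C57BL/6 and with an age label of 21 dpc, an abbreviation that the labels do not spell out. Np95, with the gene symbol Uhrf1, recruits the maintenance DNA methyltransferase to newly replicated DNA. The column headers call the knockout cKO, and the labels used here name no promoter, Cre line or floxed allele. Tubules were chopped, treated with accutase and passed through a mesh, without a described sort, so other testis cells can be present. The labels do not say whether the replicates are different animals, and the p-values then reflect only how far these libraries spread, a spread that could be technical.

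As background, double-stranded RNA in the cytoplasm is bound by the helicases RIG-I (Ddx58) and MDA5 (Ifih1), which signal through the mitochondrial adaptor MAVS, while cytoplasmic DNA is bound by cGAS (Mb21d1), which signals through STING (Tmem173). Both routes activate IRF3 and IRF7, which switch on interferon genes. Secreted interferon then acts through its receptor and a complex with STAT2 and IRF9 that binds the interferon-stimulated response element (ISRE) in the promoters of the induced genes. In other cell systems, loss of DNA methylation has been linked to transcription of endogenous retroviruses and to activity of this pathway. The libraries compared here hold gene-level transcript values only, and no measurement of DNA methylation or of retroviral RNA.

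Promoters of the members were searched for the ISRE. RefSeq promoters of build GRCm38.p6, each from 250 bases before to 50 bases after a gene's start, were matched by symbol for 30 of the 39 members. They were searched on both strands for the ISRE core, 2 copies of GAAA separated by any 2 bases, with overlapping matches allowed. At least 1 match was found for 14 of the 30 members (46.7%), against 1079 of 27025 genes of the RefSeq table (3.99%). By role the motif was present in 3 of 5 sensors, 1 of 7 signalling factors and 10 of 18 induced genes. The STAT element TTCNNNGAA was found in 8 of the 30 members (26.7%) and in 9.55% of all genes. A match is a run of letters, not a measured binding site. The windows around the match nearest the upstream end are shown 5′ to 3′ along the gene's strand, with matches that lie whole within the window in capitals, so that 2 copies of TTTC are the same motif on the other strand.
Ifih1 (chr2:62646206-62646233, minus strand): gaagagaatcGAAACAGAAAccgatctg
Ddx58 (chr4:40239804-40239833, minus strand): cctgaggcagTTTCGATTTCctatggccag
Eif2ak2 (chr17:78882535-78882564, minus strand): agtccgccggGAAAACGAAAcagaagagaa
Stat2 (chr10:128270266-128270295, plus strand): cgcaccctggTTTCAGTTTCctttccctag
Isg15 (chr4:156200877-156200906, minus strand): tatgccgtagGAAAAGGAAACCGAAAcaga
Ifit1 (chr19:34640775-34640804, plus strand): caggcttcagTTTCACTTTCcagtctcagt
Ifit3 (chr19:34583363-34583392, plus strand): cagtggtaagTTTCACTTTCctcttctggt
Oas1a (chr5:120907526-120907555, minus strand): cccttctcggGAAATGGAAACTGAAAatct
Oas3 (chr5:120777715-120777744, minus strand): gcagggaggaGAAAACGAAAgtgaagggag
Rsad2 (chr12:26456553-26456582, minus strand): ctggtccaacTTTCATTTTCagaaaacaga
Bst2 (chr8:71537583-71537612, minus strand): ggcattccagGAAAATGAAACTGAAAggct
Ifitm2 (chr7:140955988-140956017, minus strand): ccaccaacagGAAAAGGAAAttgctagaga
Ifitm3 (chr7:141010723-141010752, minus strand): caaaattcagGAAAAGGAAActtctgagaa
Gbp2 (chr3:142620594-142620623, plus strand): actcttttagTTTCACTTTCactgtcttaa
The flanking letters differ between genes, while Isg15, Oas1a and Bst2 hold overlapping matches in tandem. Mavs, Trim25, Irf7, Irf9, Oasl2 and Adar hold no match and were higher in the knockout. The 250 bases before the start of Isg15 and Bst2, also higher, and of Irf3, lower and without a match, are shown as examples. All matches are in capitals.
Isg15 (chr4:156200819-156201068, minus strand): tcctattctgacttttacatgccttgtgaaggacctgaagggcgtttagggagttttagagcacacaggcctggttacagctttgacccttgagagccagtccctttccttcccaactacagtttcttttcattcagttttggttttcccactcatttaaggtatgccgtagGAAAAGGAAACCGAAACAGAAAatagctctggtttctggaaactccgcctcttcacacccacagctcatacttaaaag
Bst2 (chr8:71537473-71537722, minus strand): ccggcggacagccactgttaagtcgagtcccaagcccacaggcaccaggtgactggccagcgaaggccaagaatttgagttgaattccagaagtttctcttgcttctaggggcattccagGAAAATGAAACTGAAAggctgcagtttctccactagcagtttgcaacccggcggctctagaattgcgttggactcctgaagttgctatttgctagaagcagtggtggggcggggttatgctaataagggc
Irf3 (chr7:44997398-44997647, plus strand): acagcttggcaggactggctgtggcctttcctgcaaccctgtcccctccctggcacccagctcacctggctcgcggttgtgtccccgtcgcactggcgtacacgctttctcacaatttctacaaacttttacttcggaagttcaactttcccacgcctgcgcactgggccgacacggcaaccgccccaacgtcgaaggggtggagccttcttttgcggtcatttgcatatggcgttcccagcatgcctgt
Isg15 holds 3 matches and Bst2 holds 2. Over the whole promoter window Irf3 has 18 CpG dinucleotides, against 6 in Isg15 and 11 in Bst2, where the median over all genes of the RefSeq table is 8. Of the 27 members with a promoter entry whose knockout values both lay above both control values, 14 held the ISRE core. The 2 members with an entry whose knockout values both lay below both control values, Irf3 and Mb21d1, held none. The others that lay below, Dhx58, Zbp1 and Mx2, have no promoter entry. With only 2 such genes, no relation between motif and direction can be read.

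The values are RPKM, reads per kilobase of gene scaled to the depth of the library. Low values step in units that match the whole gene span, introns included, so a value falls with the length of a gene's introns and is compared only with values of the same gene. Taking a step as 1 sequenced read or pair, depth was about 5840000 and 12860000 in control replicates 1 and 2, and about 11140000 and 4830000 in knockout replicates 1 and 2. Midway between whole steps (0.5 step, to within 0.05) fell 19.2% to 20.3% of each library's low values, so what 1 step counts is not settled. Read numbers given for a gene below, and the minimum of 10 used for folds, are estimates on this basis. Uhrf1 was 3.11 and 3.29 RPKM in the control libraries and 1.87 and 1.48 RPKM in the knockout libraries, and so lower in the libraries labelled knockout (log2 fold change -0.65, SE 0.0986, limma adjusted p = 0.0031). Many genes outside the pathway differed too. Of 9099 genes at 1 RPKM or more in at least 2 libraries, 73.8% were called by limma on log2(RPKM + 1), 43.3% higher and 30.5% lower in the knockout, with a median log2 fold change of 0.14. The balance over all genes depends on scaling: 3943 were higher and 2776 lower as deposited, 5346 and 1698 with an equal RPKM sum, 3045 and 3538 with an equal median, and 3157 and 3042 with quantile normalization. Both knockout libraries had each of 17 Sertoli cell markers above both control libraries (median ratio 3.29), and likewise 9 of 10 Leydig cell, 9 of 10 peritubular and stromal, 12 of 13 macrophage and 7 of 8 endothelial markers. Of all genes above 0 in any library, 53% lay above both control libraries and 25.2% below them. The endothelial markers were all under 1 RPKM, and limma without a filter called only 1 of the 8 higher. Of 12 pachytene spermatocyte markers 11 lay below both control libraries (median ratio 0.308). In bulk samples, more or fewer cells of a type and more or less RNA per cell cannot be told apart.

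Most members were higher in the knockout, and those that were lower include sensors and Irf3. Both knockout values lay above both control values for 32 of 39 members and below them for 5 (Dhx58, Mb21d1, Zbp1, Irf3 and Mx2), while Tmem173 and Ifitm1 overlapped. Over all 21208 genes above 0 in any library, 53% lay above and 25.2% below. The share above depends on level: it was 59.1% among genes with a control mean under 1 RPKM and 41.9% among genes at 1 RPKM or more. Of the 32 members with a control mean under 1 RPKM, 28 lay above and 2 below. Of the 7 members at 1 RPKM or more, 4 lay above and 3 below, against 46.3% below for all genes of that level. Scaling the libraries to an equal RPKM sum gave 33 members above and 4 below, and scaling to an equal median gave 31 and 5. The filter of 1 RPKM in at least 2 libraries was passed by 13 members, of which 10 rose and 3 fell, and 26 members were under it. Of these 13, 6 passed only through the knockout libraries (Mavs, Trim25, Irf7, Oasl2, Bst2 and Adar) and Mb21d1 only through the control libraries, so for them a difference was built into the filter.

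**Figure D1:**
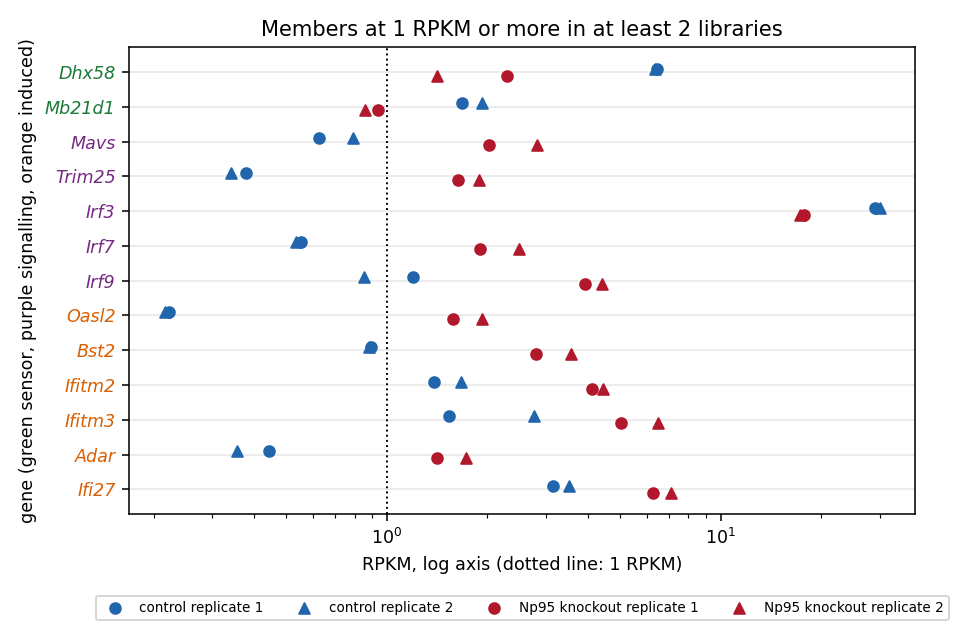
RPKM of the 13 members that passed the filter (log axis), 1 point per library, with control libraries in blue and knockout libraries in red. No member has overlapping groups, and Dhx58, Mb21d1 and Irf3 are the 3 members with the knockout points to the left.

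Among the sensors, the 2 that passed the filter fell, where 30.5% of all genes tested did. Mb21d1 passed only through the control libraries. Dhx58, which codes for LGP2, a helicase that binds double-stranded RNA and modulates the signals of RIG-I and MDA5, had 6.45 and 6.36 RPKM in control replicates 1 and 2 and 2.28 and 1.42 RPKM in knockout replicates 1 and 2. The control libraries were close to each other and both knockout libraries were far below them. Dhx58 was 3.46-fold lower (log2 fold change -1.39, SE 0.158, limma adjusted p = 0.0017). An antisense transcript, Dhx58os, covers 28.1% of its span in GENCODE M21, and the library kit does not mark strand. Mb21d1, the gene of the DNA sensor cGAS, had 1.68 and 1.93 RPKM in the control and 0.941 and 0.858 RPKM in the knockout. Its groups did not overlap, and it was 2.01-fold lower (log2 fold change -0.56, SE 0.0815, limma adjusted p = 0.0028).

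The other sensors were below 1 RPKM in every library and moved differently. Ifih1, the gene of MDA5, which binds long double-stranded RNA, had 0.0460 and 0.0348 RPKM in the control and 0.196 and 0.287 RPKM in the knockout. These values rest on an estimated 14 and 23 reads in the control libraries and 110 and 70 in the knockout libraries, and the knockout mean was 5.96 times the control mean. Ddx58, the gene of RIG-I, which binds short double-stranded RNA ends, had 0.205 and 0.182 RPKM in the control and 0.301 and 0.420 RPKM in the knockout, a ratio of 1.86. Tlr3, an endosomal receptor for double-stranded RNA, had 0.0575 and 0.0393 RPKM in the control against 0.149 and 0.181 RPKM in the knockout. Eif2ak2, the gene of PKR, a kinase that double-stranded RNA activates to halt translation, had 0.338 and 0.279 RPKM in the control and 0.564 and 0.690 RPKM in the knockout. In these 4 genes both knockout libraries lay above both control libraries. Zbp1, a receptor for left-handed nucleic acid, went the other way, with 0.0974 and 0.101 RPKM in the control and 0.0439 and 0.0508 RPKM in the knockout. Zbp1 rests on an estimated 7 and 16 reads in the control libraries and 6 and 3 in the knockout libraries, so no fold is given.

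A filter in RPKM by gene span removes long genes that still hold many reads, so the fit was repeated in 2 ways. Without a filter, limma over 21208 genes called 51% of them, 34.8% higher and 16.2% lower. Of the 26 members under the filter, 17 were then higher, Zbp1 was lower and 8 were not called, with the log2(RPKM + 1) scale compressing these low values. On depth-scaled reads of a gene, that is RPKM multiplied by span, with 10 or more estimated reads in at least 2 libraries, 15308 genes were tested, of which 74.7% were called, 50.9% higher and 23.8% lower. This fit was chosen after the values were seen. It tested 26 members, of which 21 were higher, 3 lower and 2 (Tmem173 and Mx2) not called. Tlr3, Parp14 and Gbp2 reached 10 estimated reads in the knockout libraries only, so for them the direction was built into this filter. The median log2 fold change of these 26 on that scale was 1.50, against 0.45 for all genes tested, a description over members chosen with earlier results known. Ifih1 was higher in it by 2.30 (SE 0.281, limma adjusted p = 6.48e-05), Tlr3 by 1.29 (adjusted p = 0.0051), Eif2ak2 by 0.99 (adjusted p = 0.0015) and Ddx58 by 0.84 (adjusted p = 0.0088). Ddx58 was not called without the filter on the log2(RPKM + 1) scale (adjusted p = 0.058).

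Among signalling factors, the adaptor gene of the RNA sensors rose, while that of the DNA sensor was under the filter and held few reads. The RNA and DNA routes cannot be compared from these genes. Mavs had 0.624 and 0.791 RPKM in the control and 2.02 and 2.82 RPKM in the knockout. The knockout libraries were both above 1 RPKM and the control libraries both below it, so the direction was built into the filter. The difference was 3.42-fold (log2 fold change 0.99, SE 0.135, limma adjusted p = 0.0023). Trim25, a ubiquitin ligase that helps to activate RIG-I, had 0.379 and 0.340 RPKM in the control and 1.63 and 1.88 RPKM in the knockout, without overlap. It was 4.88-fold higher (log2 fold change 1.02, SE 0.0805, limma adjusted p = 0.0014). Trim25, too, passed only through the knockout libraries. Tmem173, the gene of STING, had 0.199 and 0.119 RPKM in the control and 0.193 and 0.212 RPKM in the knockout, and its groups overlapped. Its log2 fold change on depth-scaled reads of the gene was 0.27 (SE 0.340, limma adjusted p = 0.49), resting on an estimated 7 to 15 reads per library.

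The interferon regulatory factors moved in both directions. Irf3, the constitutively present factor that sensors activate, had 29.0 and 29.9 RPKM in the control and 17.8 and 17.2 RPKM in the knockout. Replicates were within 1 RPKM of each other in each group, and the knockout was 1.68-fold lower (log2 fold change -0.72, SE 0.0924, limma adjusted p = 0.0020). With quantile normalization its call ended (log2 fold change -0.27, adjusted p = 0.054). Bcl2l12, on the opposite strand, covers 20.5% of the Irf3 span in GENCODE M21, and its RPKM was 30.1 ± 2.59 in the control and 13.0 ± 1.42 in the knockout (SD, n = 2), so reads of the pair cannot be told apart there. Irf7, which interferon induces and which amplifies the response, had 0.551 and 0.535 RPKM in the control and 1.90 and 2.49 RPKM in the knockout, 4.05-fold higher (log2 fold change 1.05, SE 0.109, limma adjusted p = 0.0015). Its groups did not overlap, although the control libraries hold only an estimated 11 and 23 reads. Irf1, a factor induced by interferon gamma among other signals, was below 1 RPKM throughout, with 0.206 and 0.253 RPKM in the control and 0.819 and 0.682 RPKM in the knockout.

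Irf9 and Stat2, genes of the interferon-activated complex, were both higher in the knockout libraries. Irf9 had 1.20 and 0.855 RPKM in the control and 3.92 and 4.42 RPKM in the knockout. Both knockout values were more than 3 times either control value, and the difference was 4.06-fold (log2 fold change 1.35, SE 0.113, limma adjusted p = 0.0014). The neighbouring Rnf31 overlaps 1.9% of the Irf9 span and was also higher, at 0.867 ± 0.205 RPKM in the control and 2.93 ± 0.208 RPKM in the knockout (SD, n = 2). Stat2 had 0.474 and 0.433 RPKM in the control and 0.883 and 1.01 RPKM in the knockout. Only knockout replicate 2 reached 1 RPKM, so Stat2 was under the filter. On depth-scaled reads of the gene it was higher by 1.02 on the log2 scale (SE 0.183, limma adjusted p = 6.9e-04), with an estimated 62 and 124 reads in the control libraries and 220 and 109 in the knockout libraries.

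The induced genes were the most uniform of the 3 roles, with 22 of 24 above both control libraries, Mx2 below and Ifitm1 overlapping. Of all genes 53% lay above, and 59.1% of those with a control mean under 1 RPKM. The 6 that passed the filter all rose, where 43.3% of all genes tested did, and 18 were under it. Of these 6, Oasl2, Bst2 and Adar passed only through the knockout libraries, so their direction was built in. Oasl2, a relative of the oligoadenylate synthetases, had 0.222 and 0.216 RPKM in the control and 1.58 and 1.92 RPKM in the knockout. Its 8.0-fold difference was the largest ratio among the members that passed the filter (log2 fold change 1.17, SE 0.0880, limma adjusted p = 0.0014). Bst2, the gene of tetherin, which holds budding viruses at the cell surface, had 0.893 and 0.883 RPKM in the control and 2.79 and 3.57 RPKM in the knockout. The control values were nearly equal, and the knockout was 3.58-fold higher (log2 fold change 1.14, SE 0.109, limma adjusted p = 0.0014). Adar, the gene of an enzyme that edits double-stranded RNA and so limits its sensing, had 0.444 and 0.355 RPKM in the control and 1.41 and 1.72 RPKM in the knockout, 3.93-fold higher (log2 fold change 0.87, SE 0.0917, limma adjusted p = 0.0015). Adar is a long gene, and these values rest on an estimated 101 and 178 reads in the control libraries and 614 and 325 in the knockout libraries. Chrnb2, on the opposite strand, covers 18.9% of its span and was 0.478 ± 0.0338 RPKM in the control and 0.373 ± 0.102 RPKM in the knockout (SD, n = 2).

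The Ifitm genes, whose small membrane proteins block virus entry and which are also expressed in germ cells, did not all move together. Ifitm2 had 1.38 and 1.67 RPKM in the control and 4.11 and 4.42 RPKM in the knockout, 2.80-fold higher (log2 fold change 1.06, SE 0.0916, limma adjusted p = 0.0014). A gene model, Gm45717, covers 95.7% of its span on the same strand in GENCODE M21. Ifitm3 had 1.53 and 2.76 RPKM in the control and 5.01 and 6.51 RPKM in the knockout. Its control libraries differed more than those of the other members that passed the filter, and the groups still did not overlap (2.69-fold higher, log2 fold change 1.12, SE 0.219, limma adjusted p = 0.0071). Ifitm1 had 0.404 and 0.318 RPKM in the control and 0.310 and 0.510 RPKM in the knockout, and was not called without the filter (adjusted p = 0.69). Outside the members, Ifitm7 fell 4.66-fold, from 6.64 ± 0.295 to 1.43 ± 0.430 RPKM (SD, n = 2, limma adjusted p = 0.0014), so the family held genes that changed in opposite directions. Members of the Ifitm, Oas, Ifit and Gbp families are similar in sequence, and the authors' counting of reads shared between them is not given in the sources used here. Ifi27, of a family of mitochondrial and nuclear membrane proteins, had 3.14 and 3.52 RPKM in the control and 6.27 and 7.10 RPKM in the knockout, 2.01-fold higher without overlap (log2 fold change 0.83, SE 0.0980, limma adjusted p = 0.0018).

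**Figure D2:**
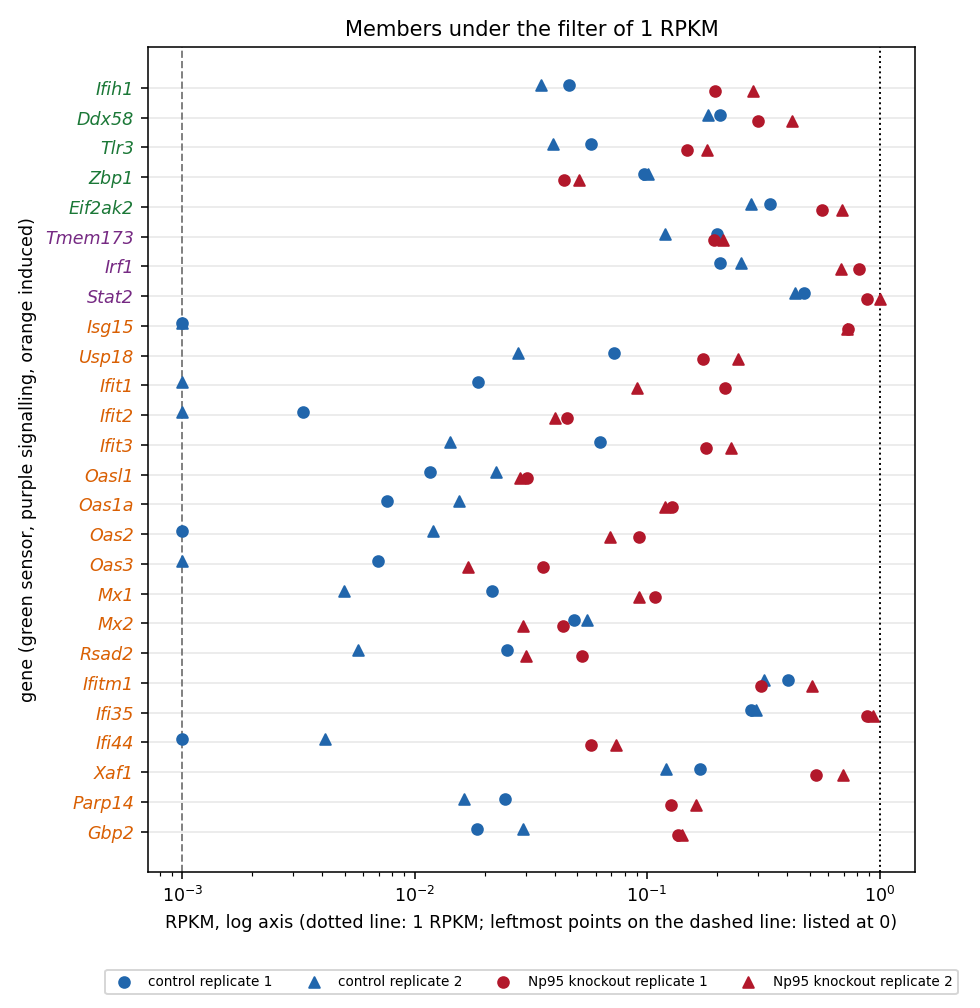
RPKM of the 26 members under the filter (log axis), 1 point per library, with values listed at 0 placed on the dashed line. In 22 of the 26 both knockout points lie to the right of both control points, and in Zbp1 and Mx2 they lie to the left.

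Induced genes that are widely used as reporters of an interferon response were at very low levels in both groups. Isg15, the ubiquitin-like modifier, was listed at 0 in both control libraries and at 0.734 and 0.728 RPKM in the knockout libraries. Its knockout values rest on an estimated 11 and 5 reads, since the gene is short. Usp18, the protease that removes Isg15 and damps receptor signals, had 0.0723 and 0.0277 RPKM in the control and 0.174 and 0.246 RPKM in the knockout. Gm44148, on the opposite strand, covers 62.8% of the Usp18 span. Among the genes that bind or stall foreign RNA, Ifit1 was at 0.0188 RPKM and at 0 in control replicates 1 and 2 and at 0.217 and 0.0905 RPKM in the knockout libraries. Ifit3 had 0.0627 and 0.0142 RPKM in the control and 0.180 and 0.230 RPKM in the knockout. Ifit2 stayed under 0.05 RPKM in every library, with 13 and 5 estimated reads in the knockout libraries and at most 1 in the control libraries. In all 3 Ifit genes both knockout libraries were above both control libraries, as in 59.1% of genes with a control mean under 1 RPKM. Ifit1, with 22 and 4 estimated reads in the knockout libraries, was not called without the filter (limma adjusted p = 0.070).

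The oligoadenylate synthetases, which make the messenger that activates the RNA-cleaving enzyme RNase L, showed the same order at similar depth. Oas1a had 0.00760 and 0.0156 RPKM in the control and 0.127 and 0.119 RPKM in the knockout, from 1 and 2 estimated reads against 16 and 6. Oas2 was listed at 0 and at 0.0119 RPKM in the control and at 0.0924 and 0.0691 RPKM in the knockout. Oas3 and the related Oasl1 lay under 0.04 RPKM in every library, and neither was called without the filter (adjusted p = 0.10 and 0.19). The antiviral GTPase gene Mx1 had 0.0215 and 0.00495 RPKM in the control and 0.108 and 0.0918 RPKM in the knockout. Mx2 did not follow it, with 0.0484 and 0.0551 RPKM in the control and 0.0435 and 0.0293 RPKM in the knockout, and was not called in either of the fits that tested it. Rsad2, the gene of the antiviral enzyme viperin, held at most 8 estimated reads in any library and was not called. Where a control group holds fewer than 10 estimated reads, as in these genes except Mx2, no fold is given.

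Of the remaining induced genes, Ifi35 had 0.279 and 0.295 RPKM in the control and 0.887 and 0.935 RPKM in the knockout, a ratio of 3.17. Xaf1, a factor linked to cell death, had 0.168 and 0.120 RPKM in the control and 0.531 and 0.697 RPKM in the knockout, a ratio of 4.26. Parp14, an ADP-ribosyltransferase, had 0.0245 and 0.0162 RPKM in the control and 0.126 and 0.162 RPKM in the knockout, a ratio of 7.08. All 3 were higher on depth-scaled reads of the gene, with limma adjusted p-values of 3.3e-04, 3.1e-04 and 1.3e-04. The guanylate-binding protein gene Gbp2 had 0.0184 and 0.0292 RPKM in the control and 0.135 and 0.141 RPKM in the knockout, and Ifi44 had at most 1 estimated read in each control library against 12 and 7 in the knockout libraries.

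**Figure D3:**
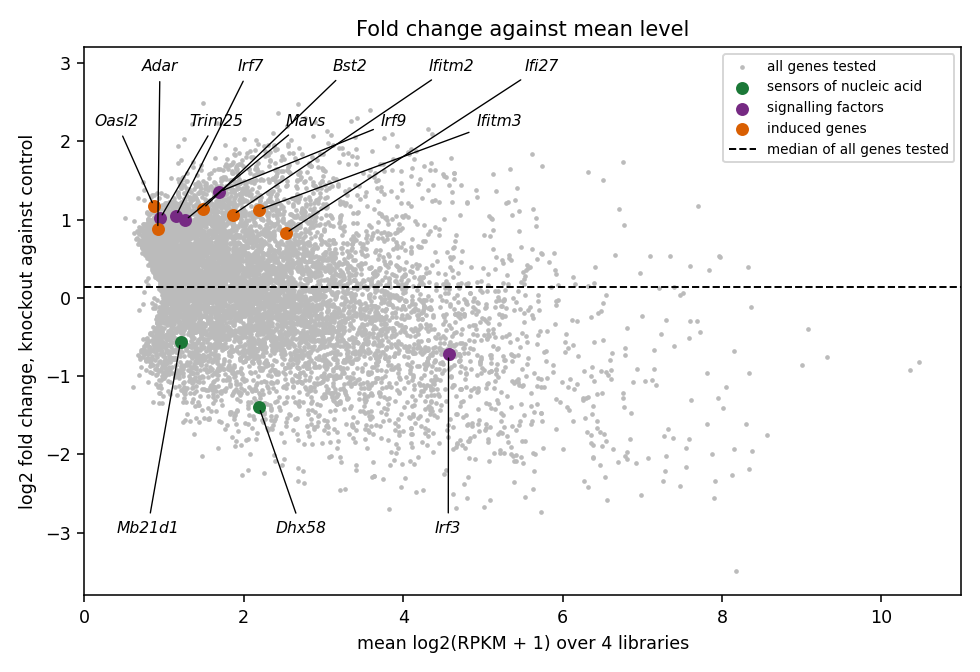
Log2 fold change of knockout against control over the mean log2(RPKM + 1) of 4 libraries for the 9099 genes tested (grey), with the 13 members that passed the filter in colour by role. The 10 members that rose lie within the grey cloud above the median line of 0.14, and Irf3, Dhx58 and Mb21d1 lie below it.

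The interferon genes themselves were listed at 0 or held very few reads at this depth. Of 21 interferon genes in the table, 17 were listed at 0 in all 4 libraries, with Ifnb1 and all the Ifna genes searched among them. The other 4 (Ifnz, Ifnl2, Ifnl3 and Ifng) held an estimated 2 reads or fewer in each library, and none had both knockout values above both control values. Of the receptor and JAK-STAT genes 8 passed the filter, of which 6 rose, 0 fell and 2 were not called. Of all genes tested 43.3% rose and 30.5% fell. Ifnar1, a chain of the type I receptor, rose 2.41-fold, from 1.49 ± 0.0890 to 3.59 ± 0.355 RPKM (SD, n = 2, limma adjusted p = 0.0015), and Ifngr2, a chain of the interferon gamma receptor, rose 2.75-fold. The kinase gene Jak1 rose 3.31-fold and the phosphatase gene Ptpn11 rose 4.40-fold. Jak1 and Ptpn11 were under 0.5 RPKM in both control libraries and passed only through the knockout libraries, so their direction was built into the filter. Tyk2 and the feedback inhibitor Socs1 were the 2 not called, with ratios of 1.04 and 1.03.

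Further genes of sensor signalling and response moved both ways. Of 5 sensor signalling genes that passed the filter, 4 rose and 1 fell. The gene that fell was Myd88, the adaptor of most Toll-like receptors, at 11.4 ± 0.0587 RPKM in the control and 5.78 ± 1.06 RPKM in the knockout (SD, n = 2, 1.97-fold lower, limma adjusted p = 0.0028). Rnf135, a ubiquitin ligase acting on RIG-I, rose 3.24-fold, the kinase gene Tbk1 rose 1.87-fold, Tax1bp1 rose 1.47-fold and Irf5 rose 1.27-fold. The limma adjusted p of Irf5 was 0.045, and 0.065 without the filter. Rnf135 and Tbk1, under 1 RPKM in both control libraries, also passed only through the knockout libraries. Of 7 further induced genes that passed the filter, 5 rose, Ifitm7 fell and 1 was not called. Parp12 rose 2.09-fold, Znfx1 2.29-fold, Ifi30 2.55-fold and Ifi27l2a 1.99-fold. Of 12 genes that remove or modify nucleic acid, 7 lay above both control libraries and 5 below. Of the 6 that passed the filter, 0 rose, 5 fell and 1 (Trex1) was not called, while without the filter, and also on depth-scaled reads, 6 of the 12 were higher and 5 lower. Among those that fell, Rnaseh2a and Rnaseh2c, subunits of the enzyme that removes ribonucleotides from DNA, were 3.61-fold and 1.99-fold lower. The testis relatives of Adar, Adad2 and Adad1, were 2.47-fold and 1.50-fold lower, and Skiv2l, an RNA exosome helicase, was 1.72-fold lower. Over the 126 pathway genes in the table, 26 passed the filter, of which 15 rose, 7 fell and 4 were not called, with a median log2 fold change of 0.43 against 0.14 for all genes. Of all genes 43.3% rose and 30.5% fell in the same fit. The pathway counts were 10 higher and 9 lower with quantile normalization, and 18 and 6 with an equal RPKM sum. On depth-scaled reads of the gene 52 of 74 were higher and 10 lower, where 50.9% of all genes were higher and 23.8% lower.

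**Figure D4:**
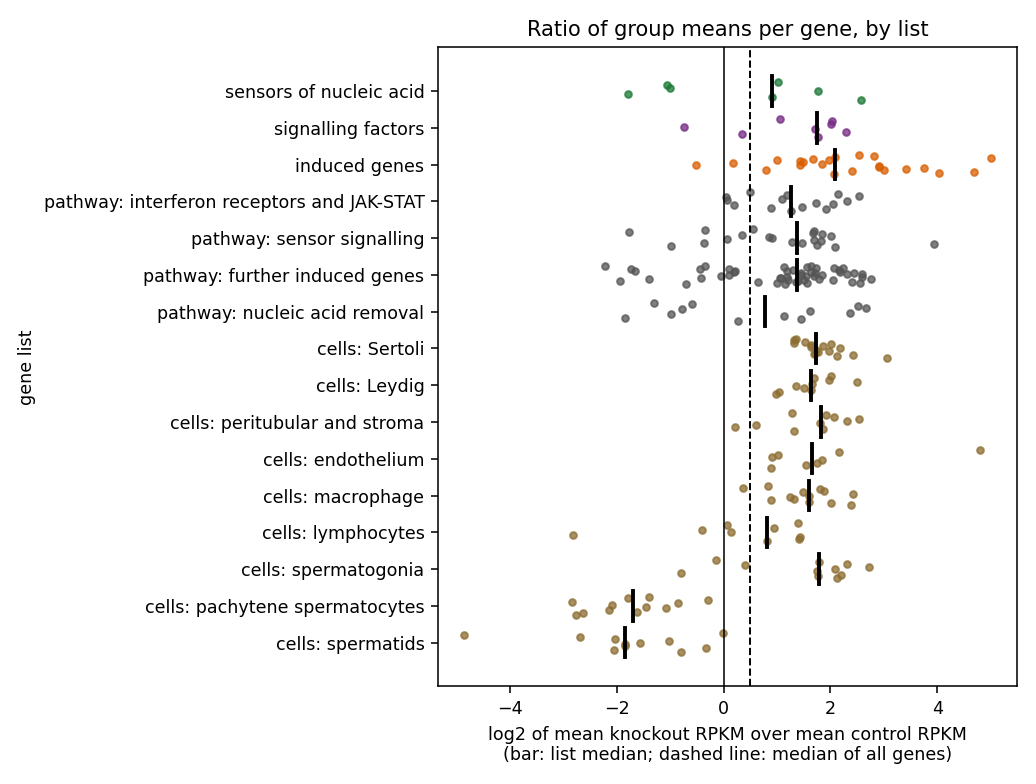
Log2 ratio of mean knockout to mean control RPKM, 1 point per gene, for the 3 roles, the pathway lists and the markers of testis cell types, leaving out genes at 0 in either group. Black bars are list medians and the dashed line is the median of all genes. Most induced genes and most markers of somatic cells lie to the right, and most markers of pachytene spermatocytes and spermatids to the left.

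The size of the members' differences was set beside that of cell markers in the same libraries. The median ratio of knockout to control mean RPKM was 4.26 for the induced genes (23 with a control value above 0), 3.34 for the signalling factors and 1.86 for the sensors, against 1.40 over all genes. It was 3.29 for Sertoli cell, 3.12 for Leydig cell, 3.56 for peritubular and stromal, 3.14 for endothelial, 3.04 for macrophage and 3.44 for spermatogonial markers. Of 11 spermatogonial markers 8 lay above and 1, Id4, below both control libraries. Their summed RPKM fell, from 41.9 and 44.6 in the control to 33.6 and 31.7 in the knockout. Id4 held most of it, with means of 40.3 and 23.1 RPKM. Ratios of genes with few reads are imprecise, and 6 induced genes were listed at 0 in at least 1 library. The median of 4.26 includes induced genes with too few control reads for a fold to be given, such as Ifit2 and Mx1. On depth-scaled reads of a gene, with its minimum of estimated reads, the median log2 fold change of 12 induced genes was 1.67. It was 1.83 for spermatogonial, 1.74 for Sertoli, 1.62 for peritubular and stromal, 1.49 for Leydig, 1.24 for endothelial and 1.19 for macrophage markers. The summed RPKM of the 13 macrophage markers found was 5.58 and 6.72 in the control libraries and 17.0 and 13.5 in the knockout libraries, with no marker listed at 0 in any library. For the 12 lymphocyte markers the sums were 0.881 and 0.799 in the control and 0.941 and 0.705 in the knockout, with 2 of 12 above and 1 below both control libraries and Nkg7 listed at 0 in all 4 libraries. The summed RPKM of the 17 Sertoli cell markers was 124.1 and 147.4 in the control and 382.7 and 484.2 in the knockout, and that of the 12 pachytene markers was 1691 and 1640 in the control and 759 and 594 in the knockout. The part of these cell types in the members' differences was not tested.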

How the data were processed

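Poly(A) RNA of 2 control and 2 Np95 knockout spermatocyte suspensions was sequenced as 50-bp pairs with an unstranded kit, per the labels' protocols. The deposited RPKM values were made by the authors, with Bowtie2 and build mm9, per the submitters' processing notes. For the counting program and annotation: not given in the sources used here. Of 24444 rows, 27 whose symbol had become a date were dropped, and of repeated symbols the row with the highest mean was kept (29 left out). Low RPKM values multiplied by RefSeq gene span (GRCm38.p6, matched by symbol) lay within 0.05 of a whole step in 45.9% to 48.1% of cases, where evenly spread values would give 10%, so the span estimates reads only roughly and no count test was run.

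Genes reaching 1 RPKM in 2 or more libraries were compared two-sided on log2(RPKM + 1) by limma 3.58.1 (R 4.3.3), its variance prior following mean level. P-values were adjusted by Benjamini-Hochberg over all genes tested, at a threshold of 0.05. This scale understates changes of low genes, while a fold is a ratio of mean RPKM and is given where each group holds at least 10 estimated reads. With 2 against 2 libraries the smallest exact permutation p is 0.333. Every member is named, with up to 5 called genes per pathway list by smallest p, of which 1 is not reported here. The members and lists were chosen with earlier results of these data known. Overlapping genes were taken from GENCODE M21. The fit was tested on simulated data. Alternatives were other pseudocounts, filters, scalings, no trend, a replicate block, summed repeats, each library left out and, added after the data were seen, depth-scaled reads of a gene.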

Additional observations from a re-analysis of the deposited data

How the results depend on the processing

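Each of the 13 members that passed the filter kept its direction in each alternative that tested it. Calls were kept in 185 of 186 pairs of a member and an alternative fit, the exception being Irf3 under quantile normalization (-0.27). The fits reuse the same 4 libraries, so these pairs are not independent. For the 6 members that passed only through the knockout libraries, and for Mb21d1, direction was built into the filter. Without a filter 27 of 39 members, 51 of 106 pathway genes and 7370 of 21208 genes were higher, and 4, 10 and 3446 lower. With RPKM of 5 or more required, 2 of 4 members, 2 of 8 pathway genes and 1080 of 3468 genes were higher. There 2 members, 6 pathway genes and 1629 of all genes were lower. On depth-scaled reads of a gene 21 of 26, 52 of 74 and 7788 of 15308 were higher, and 3, 10 and 3650 lower. Each fit covers a different set of genes. With an equal RPKM sum 5346 of all genes were higher and 1698 lower, against 3943 and 2776 as deposited; with an equal median the balance turned, to 3045 and 3538. The cause was not tested. Over all genes the median log2 fold change moved from 0.14 to 0.44 with an equal RPKM sum, -0.05 with an equal median and 0.01 with quantile normalization. Leaving out each library in turn kept the direction of each of these 13 members. The filter was not repeated there, and the lone library of a group was assumed to vary like the others. With a replicate block 10 members were higher and 3 lower, 14 and 7 pathway genes, and 3868 and 2721 of all genes; same-numbered libraries deviated with a correlation of 0.11 across genes, and the labels do not say that the numbers pair the samples. Depth limits the members under 10 estimated reads in the control, where 1 read moves a value by a large share.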
